A study of Mus musculus with 157 samples.

Results

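The genes described here encode 10 factors that hold RNA polymerase II (Pol II) shortly after initiation or release it into productive elongation. They are Nelfa, Nelfb and Nelfe (subunits of the negative elongation factor NELF), Supt5 (the larger subunit of DSIF), Cdk9, Ccnt1 and Ccnt2 (kinase and cyclins of P-TEFb), Hexim1 and Larp7 (protein subunits of the 7SK particle) and Aff4 (scaffold of the super elongation complex). All 10 genes, as 13 transcripts, were present by symbol in each of the 4 deposited tables, which share 23563 genes. The question put to the data was how Pol II on these genes themselves changed while mouse embryonic stem cells were exposed to retinoic acid.

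The cells were the wild-type E14 line, grown on gelatin in medium with serum and leukemia inhibitory factor. Whether this factor stayed in the medium during treatment is not given in the labels. They received 1 µM retinoic acid for 2, 4, 6, 24, 48 or 72 h and were compared with untreated cells (0 h). Crosslinked chromatin was immunoprecipitated with an antibody to the N-terminal domain of Pol II (NTD, total Pol II), to the form phosphorylated at serine 5 of the C-terminal repeat (Ser5p, abundant near promoters) or to that phosphorylated at serine 2 (Ser2p, abundant in gene bodies). NTD had 3 libraries at 4, 6 and 48 h and 2 at the other times. Ser5p and Ser2p had the same numbers, except for 3 libraries at 2 h. All libraries came from this single cell line, and nothing in the labels says that replicates were separate cultures, so p-values reflect only how far these libraries scatter, possibly for technical reasons.

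In metazoan cells Pol II often pauses shortly after the transcription start site (TSS), held there by NELF together with DSIF. P-TEFb phosphorylates NELF, DSIF and the C-terminal repeat, after which NELF leaves and DSIF travels on as an elongation factor. The 7SK particle keeps P-TEFb inactive through HEXIM proteins, and the super elongation complex delivers active P-TEFb to genes. In embryonic stem cells paused Pol II is common at genes of developmental and signalling pathways.

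Reads were counted within 1 kb on either side of the TSS (NTD and Ser5p) and over gene bodies (NTD and Ser2p). The totals per library were 1088159 to 3210580 reads for NTD at TSS, 1504737 to 3347830 for Ser5p at TSS, 11684907 to 25696364 for NTD over gene bodies and 18045745 to 28745658 for Ser2p. Levels are in CPM, the read count scaled to the total of the same table. The gene-body window covers the whole transcript, so it includes the first kilobase that the TSS window also counts. With the factors the authors applied to their normalized tables, in place of the trimmed-mean (TMM) scaling used here, the median of all transcripts at the TSS moved by −0.01 to 0.40 (NTD) and 0.07 to 0.47 (Ser5p) on the log2 scale. Changes at the TSS are therefore relative to the median transcript. Marker genes moved with the treatment. The summed NTD signal of 5 pluripotency genes at the TSS was 139 to 210 CPM at 48 h and 179 to 234 CPM at 72 h, against 465 to 608 CPM at 0 h, and that of 3 retinoic acid responsive genes was 201 to 302 CPM and 105 to 264 CPM, against 40.8 to 48.1 CPM. For 7 primitive endoderm genes the sum was 126 to 182 CPM at 48 h and 152 to 281 CPM at 72 h, against 85.4 to 87.4 CPM at 0 h. For 3 neural genes it was 62.4 to 85.5 CPM and 75.4 to 84.1 CPM, against 46.3 to 48.9 CPM. For 5 fibroblast genes it was 27.4 to 44.5 CPM and 39.2 to 42.8 CPM, against 28.1 to 43.0 CPM. Pluripotency signal was thus lower and that of the other sets except fibroblasts higher in the treated libraries. None of these genes was at 0 in any NTD library, and the part of a changing cell mixture in the results below was not tested. Fewer cells of a type and less Pol II per cell cannot be told apart in such bulk samples.

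A pair of NTD libraries stood apart at the TSS. Of 28043 transcripts compared, 98 in the 72 h replicate 3 library and 97 in the 0 h replicate 4 library were at least 4 times their own median over the 17 libraries, against 0 to 15 in each of the other 15 libraries. No member was among them. Since 0 h and 72 h have only 2 libraries each, results that rest on these libraries are given with and without them.

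The promoters of 9 members are in RefSeq's promoter table (GRCm38.p6). Each window holds the 250 bases before the start used in that table. It lies inside the annotated gene bounds by 30 bases for Nelfa and 127 bases for Aff4, and those bases are not shown. The remainder is shown for the 3 genes whose total Pol II at the TSS passed a test in at least 1 comparison, Nelfa (chr5:33936302-33936521, minus strand), Hexim1 (chr11:103116075-103116324, plus strand) and Aff4 (chr11:53350517-53350639, plus strand). Capitals mark exact matches to the GC box GGGCGG, the CCAAT box CCAAT, the TATA box form TATAAA and the retinoic acid receptor half-site AGGTCA. Either strand was searched, and Aff4 has none of them.
Nelfa: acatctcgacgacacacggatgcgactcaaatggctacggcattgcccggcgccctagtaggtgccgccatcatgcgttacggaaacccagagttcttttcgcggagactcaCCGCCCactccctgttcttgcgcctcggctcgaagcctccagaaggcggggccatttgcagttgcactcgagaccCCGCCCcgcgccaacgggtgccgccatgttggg
Hexim1: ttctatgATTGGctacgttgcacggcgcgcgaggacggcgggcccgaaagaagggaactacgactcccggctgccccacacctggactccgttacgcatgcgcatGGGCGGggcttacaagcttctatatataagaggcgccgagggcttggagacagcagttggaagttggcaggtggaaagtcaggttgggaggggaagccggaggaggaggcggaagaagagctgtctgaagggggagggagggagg
Aff4: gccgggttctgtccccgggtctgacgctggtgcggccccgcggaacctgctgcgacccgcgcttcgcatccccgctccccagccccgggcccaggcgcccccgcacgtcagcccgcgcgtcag
Over the 250 bases these are GC-rich promoters, with 64.8% G and C for Nelfa, 61.2% for Hexim1 and 79.2% for Aff4, against a median of 52.4% over the 32851 promoter windows of the table. The GC box was present in 8 of the 9 members, against 32.7% of all windows, and CCAAT in 4 of 9, against 33.8%. TATAAA was present only in Nelfb among the 9, against 12.4% of windows, and AGGTCA likewise only in Nelfb, against 4607 of the 32851 windows. Only exact TATAAA was counted. The Hexim1 sequence holds the similar TATATAAG, shown in lower case, so a TATA box of another form is not excluded by these counts. The direct repeat of AGGTCA spaced by 5 bases, to which retinoic acid receptors are known to bind, was in 0 of the 9 windows and in 0.00913% of all windows. The ETS motif CCGGAAG was present in Cdk9 and Ccnt1, against 6.91% of windows, and the NRF1 motif in Ccnt2, against 3.74%. The windows of the members thus differed in these letters, which says nothing about what binds there.

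All members had reads in every library of each table. These counts were not set against an input, and Nelfb Ser2p over the body (0.639 CPM per kilobase) was at the level of the transcript median (0.646). The order of total Pol II at the TSS, as mean CPM per kilobase over the 17 NTD libraries, was Hexim1 (100.2 ± 23.0, SD), Ccnt1 (66.4 ± 4.60), Aff4 (58.4 ± 10.9), Supt5 (47.4 ± 5.90), Nelfa (41.1 ± 6.33), Ccnt2 (36.6 ± 5.71), Larp7 (33.8 ± 4.78), Cdk9 (25.5 ± 3.13), Nelfb (20.4 ± 3.05) and Nelfe (11.8 ± 2.36). By their SDs Hexim1 stood clear of Ccnt1, Larp7 of Cdk9 and Nelfb of Nelfe. The other neighbours in that order overlapped. This order pools the times. At 0 h alone Nelfa (47.3 ± 1.47, SD, n = 2) stood above Aff4 (45.1 ± 6.79) and Supt5 (40.0 ± 7.37), and Larp7 (31.5 ± 3.49) overlapped with Cdk9 (29.2 ± 4.73). ChIP does not read strand, so a TSS window also counts reads of other genes inside it. 9330020H09Rik overlaps the start of Ccnt1. Within 1 kb of a start lie 2900009J06Rik (Ccnt2), Mir2861, Mir3960 and Gm33457 (Cdk9), Zgrf1 (Larp7) and Stpg3 (Nelfb). Their part in the levels and changes of these genes was not tested. The transcript median was 6.88 CPM per kilobase, and the members lay between the 62.1 percentile (Nelfe) and the 99.0 percentile (Hexim1) of all transcripts. Over gene bodies the highest density per length was again that of Hexim1 (4.88 CPM per kilobase), whose body of 3.4 kb includes the 1 kb counted at the TSS, followed by Cdk9 (1.75) and Aff4 (1.46). The other 7 members had body densities of 0.872 (Nelfb) to 1.44 CPM per kilobase (Supt5), against a transcript median of 0.645.

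**Figure D1:**
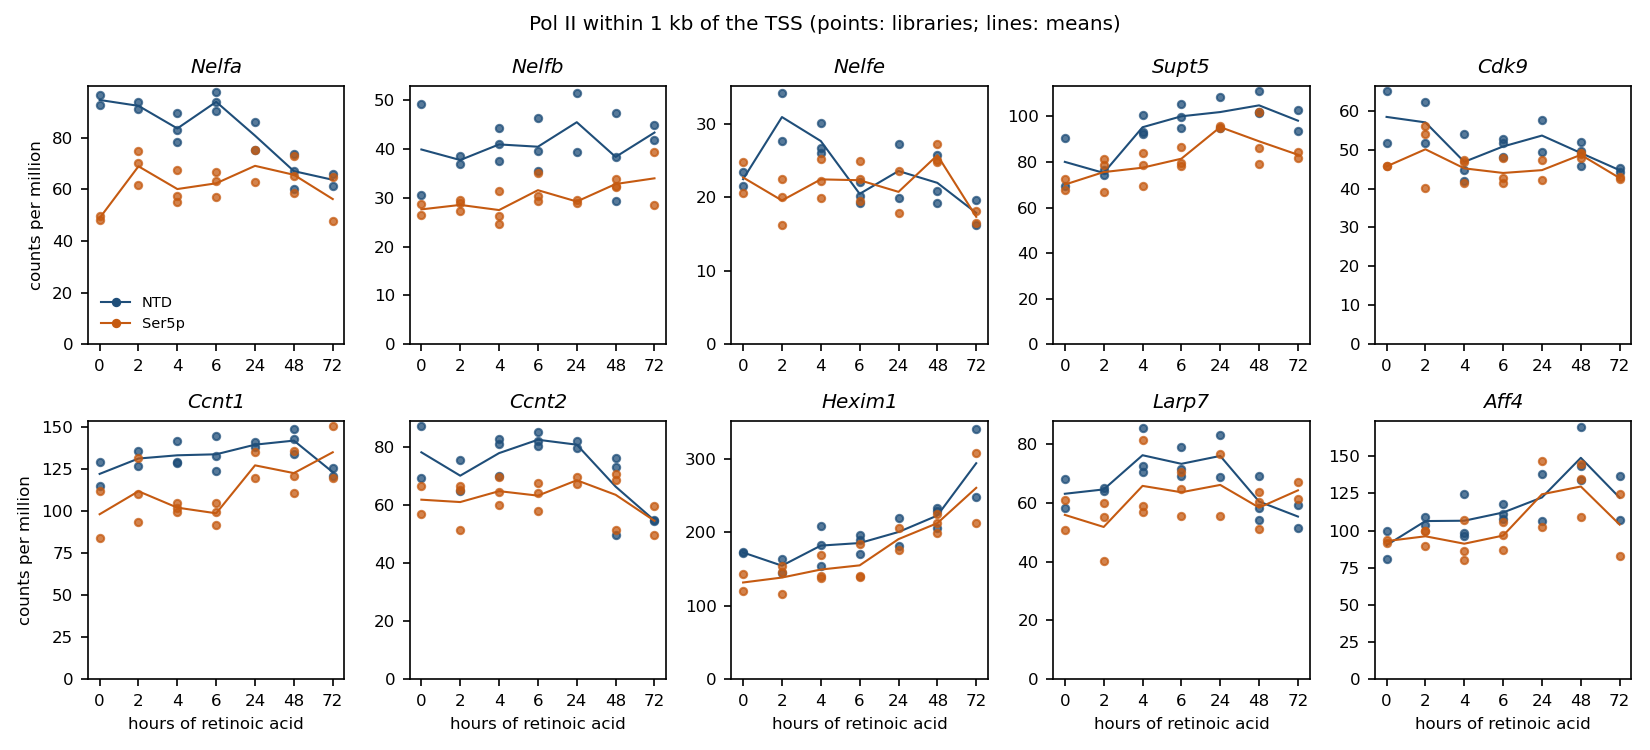
NTD (total Pol II) and Ser5p signal within 1 kb of the TSS in CPM (vertical axes, linear) against hours of retinoic acid (horizontal axes), 1 panel per gene, each point a library and each line the mean of a time. Hexim1 reached 247.2 and 340.1 CPM of NTD at 72 h, against 172.0 and 172.5 CPM at 0 h, while Nelfa lay at 60.2 to 73.7 CPM at 48 h, against 92.5 and 96.7 CPM at 0 h.

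Nelfa was called in more comparisons than any other of the 10 genes. It encodes the NELF-A subunit, a part of the paused complex. By 48 h total Pol II over its body was 2.11-fold higher than in untreated cells, and Ser2p 2.18-fold higher, while total Pol II at its TSS lay below the untreated level. Over the body NTD was 34.9 and 33.6 CPM at 0 h, 32.4 and 32.7 CPM at 2 h, 30.5, 34.3 and 35.0 CPM at 4 h, 32.6, 36.0 and 35.5 CPM at 6 h. Later it was 34.5 and 48.2 CPM at 24 h, 63.7, 83.1 and 70.7 CPM at 48 h, and 47.8 and 76.7 CPM at 72 h. Up to 6 h all libraries lay between 30.5 and 36.0 CPM, the 24 h libraries differed from each other, and every library of 48 and 72 h lay above every 0 h library.

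Tested across all transcripts with edgeR's quasi-likelihood method and Benjamini-Hochberg adjustment, NTD over the Nelfa body rose by 1.08 ± 0.18 (log2, SE) at 48 h against 0 h (adjusted p = 0.00388) and by 1.09 ± 0.16 at 48 h against 6 h (adjusted p = 0.000641). At 72 h the change against 0 h was 0.90 ± 0.20 (adjusted p = 0.0171), and over all times the adjusted p was 0.000585. The 48 h call against 0 h ended without the 0 h replicate 4 library (1.06, adjusted p = 0.0937). The 72 h call ended without the 72 h replicate 3 library (0.49, adjusted p = 0.178), without either 0 h library (0.92 without replicate 1, adjusted p = 0.111, and 0.89 without replicate 4, adjusted p = 0.142) without both libraries that stood apart (0.47, adjusted p = 0.489) and in a fit of those 2 times alone (0.89, adjusted p = 0.446). The comparison of 48 h with 6 h, which has 3 libraries on each side and uses neither, kept its call in all 12 alternatives run.

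Ser2p over the Nelfa body, a mark of elongating Pol II, also rose. It was 24.6 and 22.8 CPM at 0 h, 27.5, 27.8 and 26.1 CPM at 2 h, 25.8, 25.8 and 25.1 CPM at 4 h, 26.5, 28.0 and 26.0 CPM at 6 h. Later it was 33.5 and 36.8 CPM at 24 h, 44.8, 58.7 and 50.9 CPM at 48 h, and 35.7 and 51.1 CPM at 72 h. All libraries of 24, 48 and 72 h exceeded all earlier ones. Relative to 0 h Ser2p rose by 0.57 ± 0.13 at 24 h (log2, edgeR, adjusted p = 0.0255), by 1.13 ± 0.13 at 48 h (adjusted p = 0.000241) and by 0.88 ± 0.14 at 72 h (adjusted p = 0.00474). The rise at 48 h against 6 h was 0.97 ± 0.11 (adjusted p = 0.000102), and over time the adjusted p was 4.02e-05. These 48 h and over-time calls of Nelfa were kept in every alternative run. The 24 h call ended without either library of either time (adjusted p = 0.0514 and 0.261 without 0 h replicates 1 and 4, 0.0500 and 0.192 without 24 h replicates 2 and 3) and without 0 h replicate 4 and 72 h replicate 3 together (adjusted p = 0.128). The 72 h call ended without 72 h replicate 3 (0.61, adjusted p = 0.0795), 0 h replicate 1 (0.92, adjusted p = 0.0699), 0 h replicate 4 (0.84, adjusted p = 0.0679), both 0 h replicate 4 and 72 h replicate 3 (0.57, adjusted p = 0.289) and in a fit of the 2 times alone (0.88, adjusted p = 0.422).

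At the Nelfa TSS total Pol II was lower at late times. NTD was 92.5 and 96.7 CPM at 0 h, 90.9 and 93.7 CPM at 2 h, 78.4, 82.9 and 89.4 CPM at 4 h, 90.1, 97.5 and 93.9 CPM at 6 h. Later it was 75.3 and 86.2 CPM at 24 h, 60.2, 73.7 and 67.1 CPM at 48 h, and 66.0 and 61.4 CPM at 72 h. No library of 48 or 72 h reached the lowest earlier one. In edgeR the log2 change was −0.52 ± 0.18 at 48 h against 0 h (adjusted p = 0.0645), −0.55 ± 0.20 at 72 h (adjusted p = 0.0799) and −0.57 ± 0.17 at 48 h against 6 h (adjusted p = 0.0207), so NTD fell at the 0.05 threshold in the last of these comparisons alone. With the authors' factors the Nelfa values at 48 and 72 h were −0.28 and −0.37 (adjusted p = 0.761 and 0.744). The call against 6 h ended with the authors' factors (−0.56, adjusted p = 0.427), without 48 h replicate 1 (−0.47, adjusted p = 0.132) or 3 (−0.55, adjusted p = 0.0678) and without 6 h replicate 3 (−0.52, adjusted p = 0.0824) or 4 (−0.55, adjusted p = 0.0701). The counts behind these values were 73 to 266 reads per library.

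Ser5p at the Nelfa TSS did not follow the total. It was 48.1 and 49.6 CPM at 0 h, 61.5, 74.9 and 70.3 CPM at 2 h, 57.5, 55.2 and 67.6 CPM at 4 h, 63.3, 66.6 and 57.1 CPM at 6 h. Later it was 62.9 and 75.3 CPM at 24 h, 58.5, 65.3 and 73.1 CPM at 48 h, and 64.8 and 47.6 CPM at 72 h. Except for 1 library of 72 h, every treated library lay above both untreated ones. Ser5p rose at 24 h (0.71 ± 0.23, log2, edgeR, adjusted p = 0.0479) and had values of 0.54 ± 0.21 at 48 h (adjusted p = 0.0920) and 0.31 at 72 h (adjusted p = 0.463). The 24 h call ended without 0 h replicate 1 (0.71, adjusted p = 0.160), 0 h replicate 4 (0.73, adjusted p = 0.224, and 0.179 with 72 h replicate 3 also left out) and without 24 h replicate 3 (0.51, adjusted p = 0.405).

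The ratio of both signals at the Nelfa TSS was tested with limma on 17 pairs of Ser5p and NTD libraries with the same time and replicate number. It was higher at 48 h than at 0 h by 0.91 ± 0.17 (log2, adjusted p = 0.000629) and at 72 h by 0.75 ± 0.18 (adjusted p = 0.0165). Over time its adjusted p was 0.00380. Of the 10 members only Nelfa was called for this ratio, at 48 h (2.82% of all transcripts called), at 72 h (1.46%) and over time (1.93%). As an interaction of antibody and time in edgeR the size at 48 h was similar, 1.00, but no call was made for Nelfa (adjusted p = 0.0868 at 48 h, 0.462 at 72 h and 0.759 over time). Without 0 h replicate 4 the limma calls at 48 and 72 h ended (0.90 and 0.74). They also ended when 0 h replicate 4 and 72 h replicate 3 were left out together (0.90 and 0.91). The 72 h call ended also without 72 h replicate 1 (0.58, adjusted p = 0.319).

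**Figure D2:**
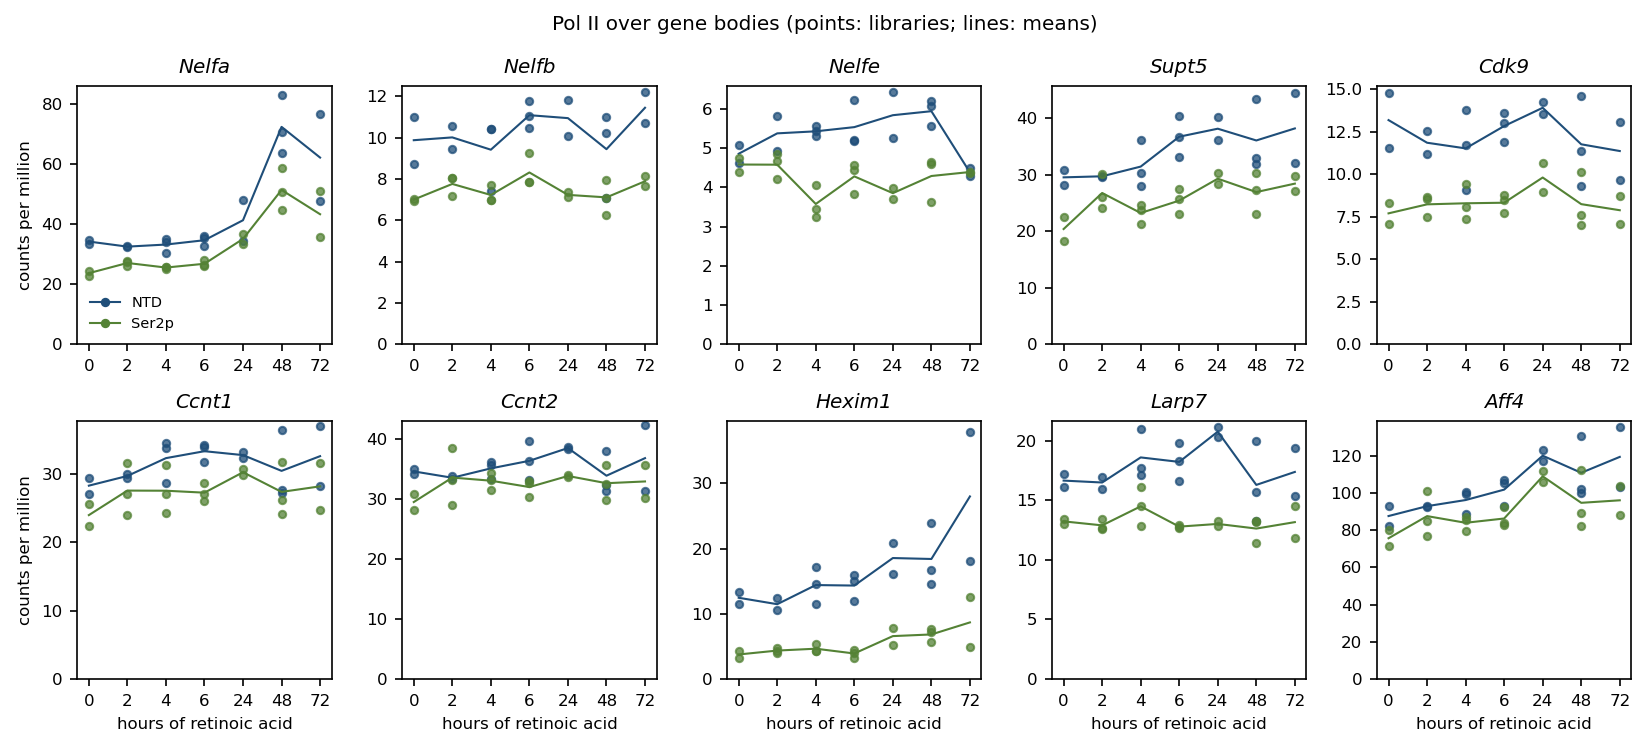
NTD and Ser2p signal over gene bodies in CPM (vertical axes, linear) against hours of retinoic acid (horizontal axes), 1 panel per gene, each point a library and each line the mean of a time. Nelfa lay at 63.7 to 83.1 CPM of NTD and 44.8 to 58.7 CPM of Ser2p at 48 h, against 33.6 to 34.9 CPM and 22.8 to 24.6 CPM at 0 h.

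The balance of total Pol II between the start and the body of Nelfa differed between early and late times. The density of NTD reads over the body, as a percentage of that in the TSS window, was 22.3 and 18.1% at 0 h, 21.8 and 19.0% at 2 h, 23.7, 19.4 and 17.4% at 4 h, 17.9, 15.9 and 16.2% at 6 h. Later it was 19.5 and 21.9% at 24 h, 63.8, 41.2 and 59.4% at 48 h, then 46.5 and 51.6% at 72 h. For Nelfa no library up to 24 h exceeded 23.7%, and none of 48 or 72 h was below 41.2%. The limma test of the NTD body-to-TSS ratio gave a log2 change of 1.56 ± 0.18 at 48 h (adjusted p = 0.000918), 1.38 ± 0.20 at 72 h (adjusted p = 0.0161) and 1.53 ± 0.16 at 48 h against 6 h (adjusted p = 0.000428), with an adjusted p of 0.000360 over time.

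Among the 10 members Nelfa alone was called for the NTD body-to-TSS ratio, at 48 h against 0 h (0.886% of all transcripts called), at 72 h (0.665%), at 48 h against 6 h (1.04%) and over time (1.33%). Its calls at 48 h and over time were kept in all alternatives, and that at 72 h ended without 0 h replicate 4 (1.32, adjusted p = 0.0762) and without that and 72 h replicate 3 (0.93, adjusted p = 0.179). For the other 9 members the ratio at 48 h changed by −0.39 (Aff4) to 0.31 (Nelfe) on the log2 scale with adjusted p values of at least 0.364, and the median of the 10 members was 0.04, against −0.01 over all transcripts. In the 17 libraries their body density, as a percentage of TSS density, had medians of 19.1% (Ccnt1), 24.6% (Aff4), 27.8% (Supt5), 29.8% (Ccnt2), 30.6% (Larp7), 39.0% (Nelfb), 44.5% (Hexim1), 65.0% (Cdk9) and 70.4% (Nelfe). Density over the body was below that at the TSS in most libraries of these genes, and Nelfe reached 113.0% in 1 library. The body window includes the first kilobase counted at the TSS, which weighs more in short genes. The highest medians were those of the shortest members, Nelfb (11.8 kb), Hexim1 (3.4 kb), Cdk9 (7.0 kb) and Nelfe (6.0 kb). The others span 16.6 (Larp7) to 71.1 kb (Aff4), and the part of length in this order was not tested. The median over all transcripts with at least 10 TSS reads was 93.2% at 0 h, 66.3% at 24 h, 68.4% at 48 h and 77.3% at 72 h.

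**Figure D3:**
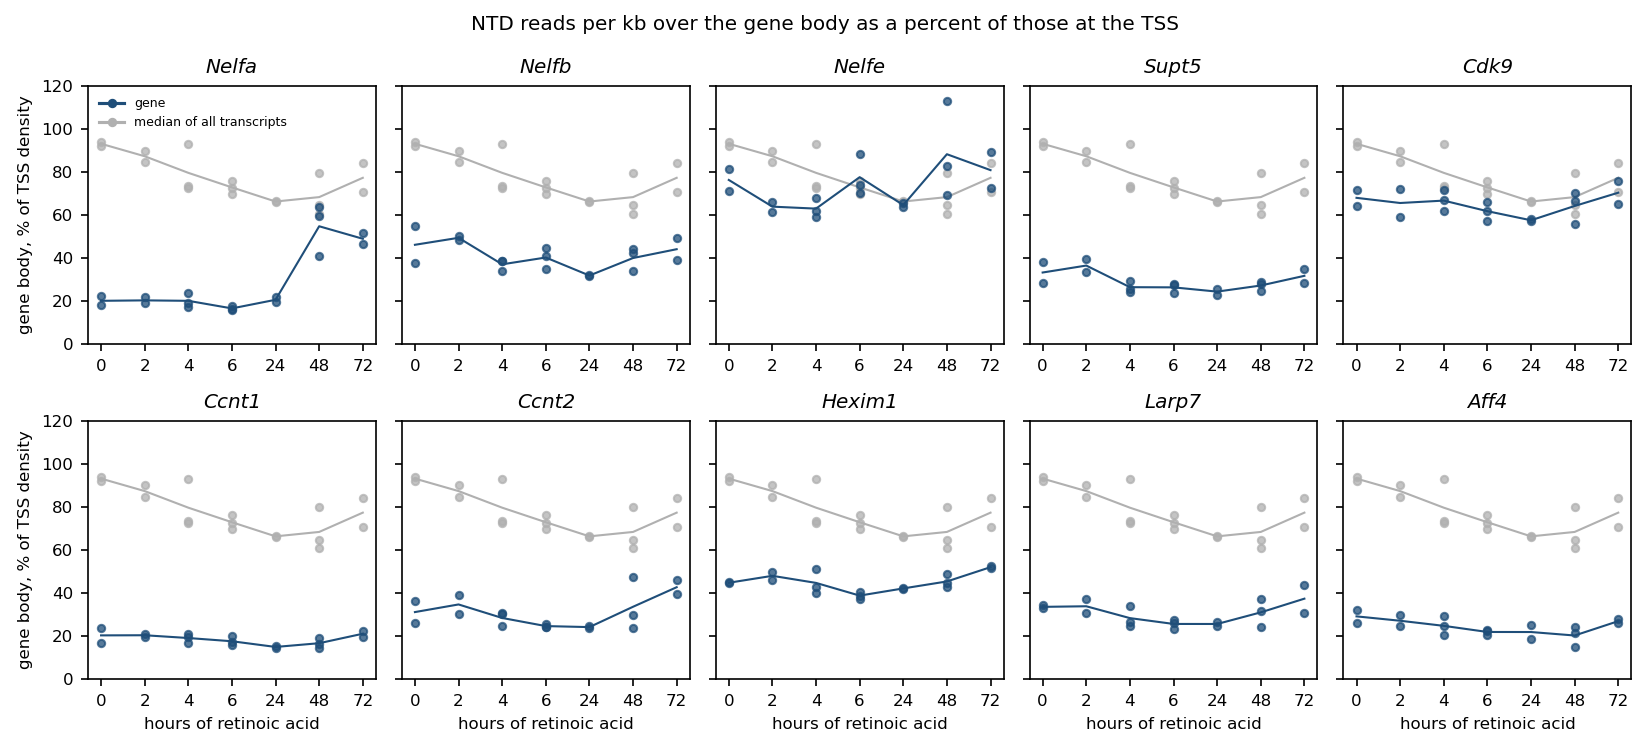
NTD density over the gene body as a percentage of NTD density in the TSS window (vertical axes) against hours of retinoic acid (horizontal axes), 1 panel per gene, with the gene's libraries in blue and the median of all transcripts in grey. Nelfa averaged 54.8% at 48 h and 49.0% at 72 h, against 20.2% at 0 h.

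The reads over Nelfa cannot be assigned to Nelfa alone. Nelfa (chr5:33897916-33936301, minus strand, GRCm38) and Nsd2 (chr5:33820676-33897966, plus strand), which encodes a histone H3 lysine 36 methyltransferase, are transcribed toward each other, and their 3′ ends overlap. Mir7024, a microRNA gene (chr5:33898910-33898971), lies near the 3′ end of Nelfa. These neighbours were chosen after their values were seen, and ChIP does not read strand. NTD over the longer Nsd2 body (55.2 kb) rose by 0.86 ± 0.14 at 48 h (log2, edgeR, adjusted p = 0.00208) and by 0.95 ± 0.15 at 72 h (adjusted p = 0.00226), and its Ser2p by 0.88 (adjusted p = 0.000557) and 0.84 (adjusted p = 0.00283). The 48 h calls for Nsd2 were kept in all alternatives. Of the 72 h ones for Nsd2, NTD ended without both libraries that stood apart (0.72, adjusted p = 0.0637) and in a fit of the 2 times alone (0.94, adjusted p = 0.308). Ser2p ended without 0 h replicate 4 (0.75, adjusted p = 0.0609), 72 h replicate 3 (0.66, adjusted p = 0.0575) or both (0.57, adjusted p = 0.283) and in a fit of the 2 times alone (0.84, adjusted p = 0.335). At the Nsd2 TSS the NTD change was 0.21 at 48 h (adjusted p = 0.824) and 0.89 at 72 h (adjusted p = 0.124).

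The difference from 0 h was uneven along this pair of genes. In the first 34.5 kb of Nsd2, far from Nelfa, NTD density was 0.924 CPM per kilobase (scaled to gene-body totals) at 48 h and 1.08 at 72 h, against 0.717 at 0 h, which is 1.29 and 1.51 times the 0 h level. In the last 20.7 kb of Nsd2, next to Nelfa, it was 2.81 and 2.70, against 1.20 at 0 h, or 2.35 and 2.26 times. Density was thus higher in the part of Nsd2 that adjoins Nelfa at all these times. In the 2 kb around the Mir7024 start, within the last part of Nelfa, it was 4.01 at 48 h and 3.49 at 72 h, against 1.31 at 0 h, or 3.08 and 2.67 times. Over the remaining 36.1 kb of Nelfa, up to its start, it was 1.79 and 1.53, against 0.877, or 2.04 and 1.75 times. In the TSS window of Nelfa itself it was 3.68 and 3.30, against 4.50, or 0.818 and 0.735 times. On this scale the Nelfa TSS window spanned 2.62 to 5.3 at 48 h and 2.7 to 3.91 at 72 h, against 4.11 to 4.88 at 0 h, so that 1 library of 48 h lay above both untreated ones and the groups overlapped at 48 h, unlike in CPM of the TSS table. Read from the Nelfa start toward its 3′ end, the ratio to 0 h therefore passed from below 1 to the highest of the 6 parts measured around Mir7024.

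The Mir7024 window also separated the times library by library. NTD there was 25.0 and 29.7 CPM at 0 h, 23.8 and 25.6 CPM at 24 h, 76.0, 73.4 and 74.4 CPM at 48 h, and 55.1 and 74.1 CPM at 72 h, and at 2, 4 and 6 h it was 16.6 to 24.0 CPM. The log2 change was 1.39 ± 0.21 at 48 h (edgeR, adjusted p = 6.73e-06) and 1.30 ± 0.23 at 72 h (adjusted p = 6.79e-05). Ser5p in the same window was 79.7, 88.8 and 75.4 CPM at 48 h and 56.5 and 73.8 CPM at 72 h, against 30.0 and 26.7 CPM at 0 h, a log2 change of 1.62 ± 0.22 (adjusted p = 4.60e-06) and 1.34 ± 0.24 (adjusted p = 0.000231). Of the Mir7024 TSS-window alternatives, 1 ended a call, Ser5p at 72 h without both 0 h replicate 4 and 72 h replicate 3 (0.89, adjusted p = 0.253). Whether this Pol II belongs to Nelfa, to Nsd2 or to a start within the Mir7024 window cannot be told apart from these counts.

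**Figure D4:**
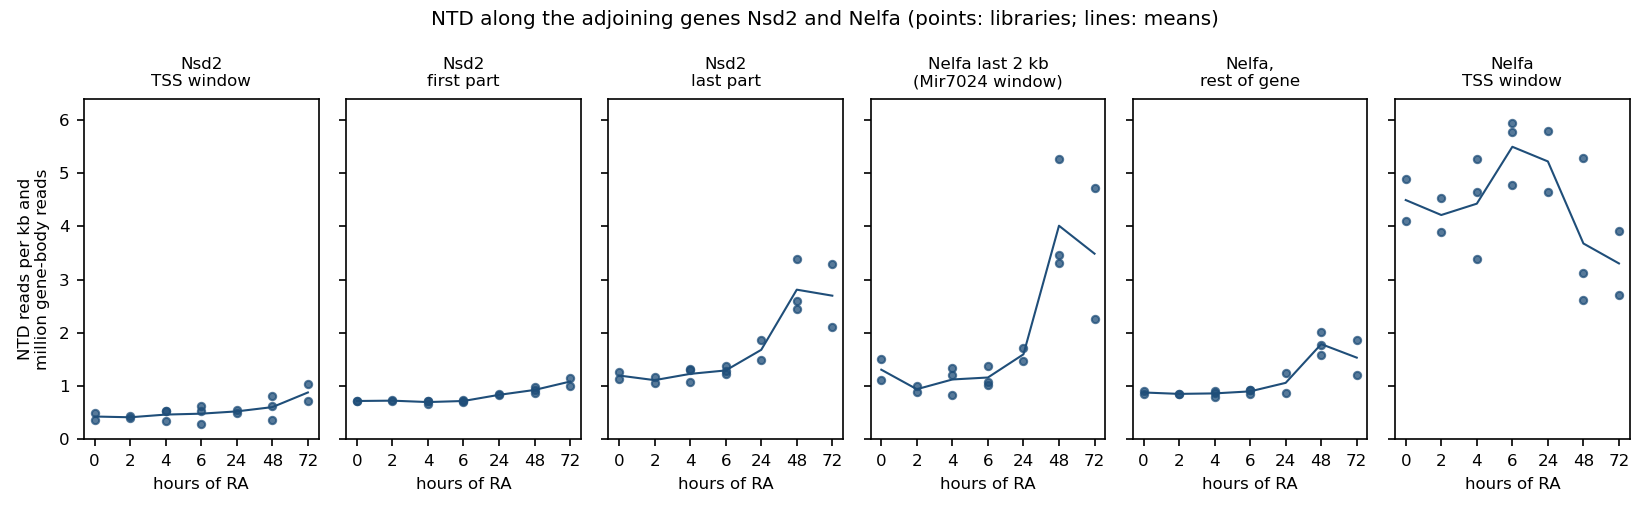
NTD density in CPM per kilobase, scaled to gene-body totals (vertical axis, linear), against hours of retinoic acid (horizontal axes) in 6 parts of the Nsd2 and Nelfa locus, 1 panel each in genomic order from the Nsd2 TSS to the Nelfa TSS, with points for libraries and lines for means. The last 20.7 kb of Nsd2 and the Mir7024 window were at 2.81 and 4.01 on average at 48 h, against 1.20 and 1.31 at 0 h, whereas the Nelfa TSS window was at 3.68, against 4.50, with 1 library of 48 h above both of 0 h.

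The other NELF genes showed no call. Nelfb encodes the NELF-B subunit and Nelfe the RNA-binding NELF-E subunit. NTD at the Nelfb TSS was 29.4 to 47.3 CPM at 48 h and 41.7 and 45.0 CPM at 72 h, against 30.5 and 49.3 CPM at 0 h, with log2 changes of −0.11 ± 0.22 and 0.11 ± 0.23 (0.11 for Nelfb at 48 h with the authors' factors). At the Nelfe TSS it was 19.3 to 25.8 CPM and 16.2 and 19.6 CPM, against 21.6 and 23.4 CPM, with −0.06 ± 0.23 and −0.32 ± 0.25 (0.16 for Nelfe at 48 h with those factors). The Nelfb groups overlapped at both times, and for Nelfe the 72 h libraries lay below the 0 h ones by less than the test requires (edgeR, adjusted p = 0.539). Nelfe had the lowest counts of the members, 21 to 62 NTD reads at its TSS per library, so that only large changes were detectable. Stpg3 lies within 1 kb of Nelfb and Gm22572 inside it, and Skiv2l and Cfb lie within 1 kb of either end of Nelfe.

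Supt5 encodes the subunit of DSIF that P-TEFb phosphorylates. Ser2p over its body was 22.6 and 18.3 CPM at 0 h, 24.1, 30.1 and 26.2 CPM at 2 h, 21.3, 23.7 and 24.8 CPM at 4 h, 27.5, 25.8 and 23.1 CPM at 6 h. Later it was 30.3 and 28.3 CPM at 24 h, 23.1, 30.3 and 27.4 CPM at 48 h, and 27.1 and 29.8 CPM at 72 h. It lay above both 0 h libraries in all libraries from 6 h on. Ser2p rose at 24 h (0.53 ± 0.14, log2, edgeR, adjusted p = 0.0297) and had changes of 0.41 ± 0.13 at 48 h (adjusted p = 0.109) and 0.49 ± 0.14 at 72 h (adjusted p = 0.0795). The 24 h call ended without 0 h replicate 4 (0.40, adjusted p = 0.290), without 24 h replicate 2 (0.49, adjusted p = 0.0946) and without 24 h replicate 3 (0.57, adjusted p = 0.177), and when the libraries numbered like the pair that stood apart were left out (0.40, adjusted p = 0.213). Ser5p at the Supt5 TSS was 94.8 and 95.9 CPM at 24 h, against 67.8 and 72.4 CPM at 0 h (0.64 ± 0.23, edgeR, adjusted p = 0.0692), a difference not called here but called by DESeq2 (0.68, adjusted p = 0.0298), with the authors' factors (1.11, adjusted p = 0.0267) and in a fit of the 2 times alone (0.65, adjusted p = 0.0485). Total Pol II at the TSS changed by 0.33 ± 0.19 at 48 h (adjusted p = 0.318).

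The P-TEFb genes were not called in any table with TMM scaling and all libraries. Cdk9 encodes the kinase that phosphorylates serine 2, and Ccnt1 and Ccnt2 its alternative cyclins T1 and T2. NTD at the Cdk9 TSS was 45.9 to 51.8 CPM at 48 h and 44.2 and 45.2 CPM at 72 h, against 51.7 and 65.1 CPM at 0 h (log2 −0.29 ± 0.20 and −0.36 ± 0.21). At the Ccnt1 TSS it was 134.1 to 148.9 CPM and 120.8 and 125.4 CPM, against 114.8 and 129.4 CPM (0.17 ± 0.19 and 0.03 ± 0.20). At the Ccnt2 TSS it was 49.5 to 76.3 CPM and 54.4 and 54.8 CPM, against 69.1 and 87.0 CPM (−0.28 ± 0.19 and −0.49 ± 0.21). Both 72 h libraries of Cdk9 and of Ccnt2 lay below both 0 h libraries, with edgeR adjusted p values of 0.352 and 0.157, while the Ccnt1 groups overlapped at 72 h.

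Ser5p at these starts was likewise uncalled, except for Ccnt1 under alternatives. At 24 h Ser5p at the Ccnt1 TSS had a log2 change of 0.58 ± 0.25 (edgeR, adjusted p = 0.123), against 1.05 with the authors' factors (adjusted p = 0.0387). Ser5p at the Ccnt1 TSS was 119.6 and 150.4 CPM at 72 h, against 84.0 and 112.2 CPM at 0 h (0.61 ± 0.25, edgeR, adjusted p = 0.128), and was called without 72 h replicate 1 (0.90, adjusted p = 0.0272). At the Ccnt2 TSS it was 59.5 and 49.5 CPM, against 57.0 and 66.5 CPM (−0.06 ± 0.24, adjusted p = 0.924), and at the Cdk9 TSS 42.4 and 43.0 CPM, against 45.7 and 45.7 CPM (0.04 ± 0.23, adjusted p = 0.952). CPM is scaled to the total and the log2 change by TMM, and for Cdk9 these scales differed in direction. With all libraries and TMM scaling none of these changes passed the test, the Ccnt2 value turned to 0.16 with the authors' factors, and differences between the genes were not tested. Over gene bodies NTD of Ccnt1 was 27.3 to 36.4 CPM at 48 h, against 27.1 and 29.4 CPM at 0 h, that of Ccnt2 31.3 to 38.0 CPM, against 34.1 and 35.1 CPM, and that of Cdk9 9.29 to 14.6 CPM, against 11.6 and 14.8 CPM. In all 3 genes these body values overlapped between 48 and 0 h. At 24 h NTD over the bodies of Ccnt1 (32.4 and 33.1 CPM) and Ccnt2 (38.4 and 38.7 CPM) lay above both 0 h libraries. That of Cdk9 (13.5 and 14.3 CPM) overlapped. Ser2p over the Ccnt1 body was 29.8 and 30.7 CPM at 24 h, against 22.3 and 25.6 CPM at 0 h. It was called in a fit of the 2 times alone (0.34, log2, edgeR, adjusted p = 0.0283). Ser2p of Ccnt2 and Cdk9 at 24 h also lay above both 0 h libraries and was not called.

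Hexim1, the inhibitor that 7SK RNA brings to P-TEFb, rose late. NTD at its TSS was 172.0 and 172.5 CPM at 0 h, 144.5 and 164.0 CPM at 2 h, 154.1, 208.9 and 181.9 CPM at 4 h, 170.4, 195.9 and 188.9 CPM at 6 h. Later it was 181.0 and 219.2 CPM at 24 h, 232.4, 229.3 and 205.9 CPM at 48 h, and 247.2 and 340.1 CPM at 72 h. Every library of 24, 48 and 72 h was above both untreated ones, and the 72 h pair was the highest and the least alike. NTD at the TSS rose by 0.82 ± 0.23 at 72 h (log2, edgeR, adjusted p = 0.0135, 1.77-fold) and had a change of 0.33 ± 0.21 at 48 h (adjusted p = 0.392), with an adjusted p of 0.0141 over time. Ser5p at the Hexim1 TSS was 143.4 and 119.4 CPM at 0 h, 115.5, 153.9 and 145.1 CPM at 2 h, 137.4, 168.9 and 140.8 CPM at 4 h, 140.6, 184.0 and 139.6 CPM at 6 h. Later it was 175.4 and 205.5 CPM at 24 h, 199.4, 224.8 and 212.2 CPM at 48 h, and 212.6 and 307.7 CPM at 72 h. It rose by 0.79 ± 0.26 at 48 h (adjusted p = 0.0338) and by 1.14 ± 0.28 at 72 h (adjusted p = 0.00505), with an adjusted p of 0.00466 over time.

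Size and call of the Hexim1 result depended on single libraries. Transcripts below the median level held 8.92% of NTD reads at the TSS in 72 h replicate 3, against 13.9% in replicate 1. For Ser5p the shares were 12.6 and 18.6%. At 0 h the NTD shares were 12.8 and 10.2%, with Hexim1 at 172.0 and 172.5 CPM. The part of such differences in the Hexim1 values was not tested. Without 72 h replicate 3 of the same antibody, the changes at the TSS at 72 h were 0.44 for NTD and 0.68 for Ser5p (log2, edgeR). Both 72 h calls and the over-time call of NTD ended. Of these libraries the NTD one stood apart. The Ser5p one had 3 transcripts at least 4 times their own median, as had Ser5p 72 h replicate 1. Leaving out 0 h replicate 1 or 4 gave NTD changes of 0.79 (adjusted p = 0.138) and 0.90 (adjusted p = 0.0575) at 72 h, and leaving out 2 h replicate 1 or 4 gave over-time adjusted p values of 0.0943 and 0.0566. Without 0 h replicate 4 the Ser5p change was 1.01 (adjusted p = 0.126) at 72 h. The Ser5p call of Hexim1 at 48 h ended without 0 h replicate 1 (0.96, adjusted p = 0.0853) or 4 (0.67, adjusted p = 0.310) and without 48 h replicate 2 (0.70, adjusted p = 0.119) or 3 (0.79, adjusted p = 0.0830). Without both 0 h replicate 4 and 72 h replicate 3 the Hexim1 changes were 0.49 (NTD, adjusted p = 0.502) and 0.54 (Ser5p, adjusted p = 0.673) at 72 h and 0.67 (Ser5p, adjusted p = 0.208) at 48 h, and the over-time adjusted p of NTD was 0.179. Fits of the 2 times alone ended both 72 h calls of Hexim1 (NTD 0.78, adjusted p = 0.135, and Ser5p 1.17, adjusted p = 0.0666). The over-time call of Ser5p was lost only without both 0 h replicate 4 and 72 h replicate 3 (adjusted p = 0.0759). With the authors' factors the NTD change of Hexim1 at 72 h was 1.04 (adjusted p = 0.151) and the over-time adjusted p 0.221, while its Ser5p change at 24 h was called with them (1.20, adjusted p = 0.0274), by DESeq2 (0.77, adjusted p = 0.0347) and in a fit of the 2 times alone (0.74, adjusted p = 0.0434), but not here (0.74, adjusted p = 0.0809).

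Over the short Hexim1 body NTD was 11.6 and 13.3 CPM at 0 h, 10.5 and 12.4 CPM at 2 h, 11.6, 17.1 and 14.5 CPM at 4 h, 11.9, 15.1 and 16.0 CPM at 6 h. Later it was 16.2 and 20.9 CPM at 24 h, 16.8, 23.9 and 14.5 CPM at 48 h, and 18.1 and 37.8 CPM at 72 h. The libraries of 24, 48 and 72 h all lay above both 0 h ones, and 1 library of 72 h stood far above the other. The change at 72 h was 1.21 ± 0.30 (log2, edgeR, adjusted p = 0.0334), but 0.54 without that library, 72 h replicate 3 (adjusted p = 0.373), 1.10 without 0 h replicate 1 (adjusted p = 0.221) 1.34 without 0 h replicate 4 (adjusted p = 0.152), 0.67 without both 0 h replicate 4 and 72 h replicate 3 (adjusted p = 0.548) and 1.20 in a fit of the 2 times alone (adjusted p = 0.467). Ser2p over the body was 4.85 and 12.5 CPM at 72 h, against 4.30 and 3.24 CPM at 0 h (1.21 ± 0.32, edgeR, adjusted p = 0.0689). Its over-time call (adjusted p = 0.0476) was kept in only 6 of the 23 alternatives run and lost in 17.

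Larp7, which binds the end of 7SK RNA and keeps the particle stable, was not called in any table with TMM scaling and all libraries. NTD at its TSS was 54.2 to 69.0 CPM at 48 h and 51.5 and 59.2 CPM at 72 h, against 58.1 and 68.0 CPM at 0 h, with log2 changes of −0.06 ± 0.19 and −0.12 ± 0.21 that turned to 0.18 and 0.06 with the authors' factors. NTD over its body was 13.3 to 19.9 CPM and 15.4 and 19.3 CPM, against 16.1 and 17.2 CPM. The times overlapped in both. Larp7 hosts the miR-302 and miR-367 genes, a cluster known for its activity in pluripotent cells, and lies within 1 kb of Zgrf1, and none of these neighbours was called over time in edgeR in the tables where they were tested. Hexim1 and Larp7, which act in the same particle, were thus called differently, and the difference between them was not tested.

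Aff4 is the scaffold that joins P-TEFb to ELL proteins in the super elongation complex. NTD at its TSS was 80.5 and 99.7 CPM at 0 h, 103.4 and 109.4 CPM at 2 h, 98.5, 124.9 and 96.5 CPM at 4 h, 107.6, 110.9 and 117.9 CPM at 6 h. Later it was 106.2 and 138.4 CPM at 24 h, 134.1, 169.4 and 143.4 CPM at 48 h, and 137.0 and 107.1 CPM at 72 h. All treated libraries except 2 of 4 h lay above both untreated ones, and 48 h was the highest time. NTD rose by 0.69 ± 0.20 at 48 h (log2, edgeR, adjusted p = 0.0189, 1.61-fold), and had changes of 0.50 ± 0.21 at 24 h (adjusted p = 0.264) and 0.43 ± 0.22 at 72 h (adjusted p = 0.246). The 48 h call ended without 0 h replicate 1 (0.52, adjusted p = 0.329) and without 48 h replicate 2 (0.52, adjusted p = 0.139) and with the authors' factors (0.94, adjusted p = 0.132). Ser5p at the Aff4 TSS at 24 h, 0.64 ± 0.24 here (adjusted p = 0.0869), was called with those factors (1.11, adjusted p = 0.0294), by DESeq2 (0.67, adjusted p = 0.0392) and without 24 h replicate 2 (0.92, adjusted p = 0.0465).

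Over the 71.1 kb Aff4 body the signal was also higher in treated cells. Ser2p was 106.0 and 111.9 CPM at 24 h, against 79.9 and 71.4 CPM at 0 h, and rose by 0.53 ± 0.13 (log2, edgeR, adjusted p = 0.0288). At 48 h it was 82.2 to 112.5 CPM (0.33 ± 0.12, adjusted p = 0.178) and at 72 h 88.1 and 104.0 CPM (0.35 ± 0.13, adjusted p = 0.182). Every library of these 3 times was above both untreated ones. NTD over the body was 103.2 and 135.6 CPM at 72 h, against 82.0 and 93.2 CPM at 0 h (0.48 ± 0.15, adjusted p = 0.0778), a difference DESeq2 called. The Ser2p call for Aff4 ended without 0 h replicate 1 (0.60, adjusted p = 0.0517) or 4 (0.47, adjusted p = 0.273) and without 24 h replicate 2 (0.58, adjusted p = 0.0661) or 3 (0.49, adjusted p = 0.195), and when both libraries numbered like the pair that stood apart were left out (0.47, adjusted p = 0.191).

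**Figure D5:**
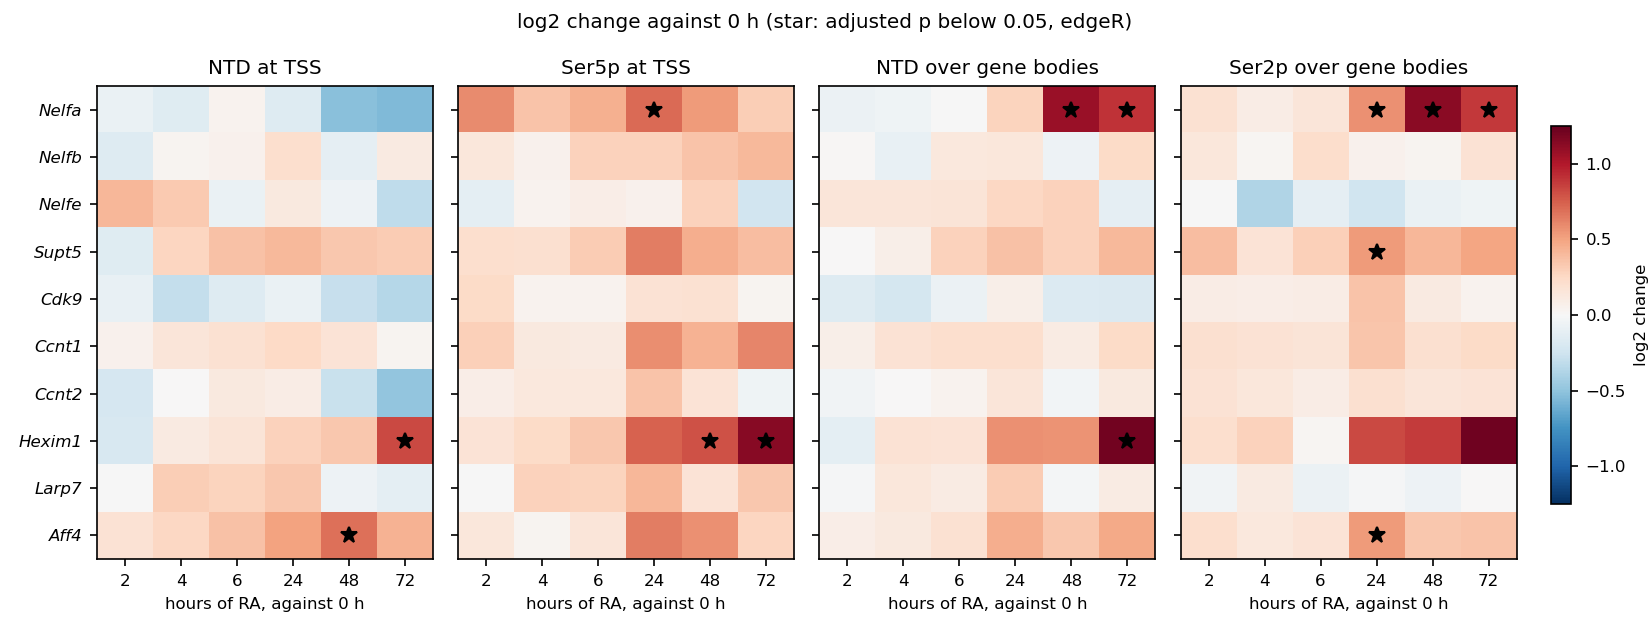
Log2 change against 0 h (colour, blue below and red above 0) of the 10 genes (rows) at 2, 4, 6, 24, 48 and 72 h (columns) for NTD and Ser5p near the TSS and for NTD and Ser2p along gene bodies (panels), with a star where the edgeR adjusted p was below 0.05. Stars fall at 24 h and later only, and Nelfa is negative for NTD at the TSS at 48 h (−0.52) and positive over the body (1.08).

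Counted over the 10 genes, few passed a test, and none did within the first 6 h. For NTD at TSS edgeR called 0 of 10 at 2 h (0.320% of all transcripts called), 4 h (0.709%), 6 h (0.728%) and 24 h (1.52%), and 1 of 10 each at 48 h (Aff4, 9.58%), at 72 h (Hexim1, 9.13%), at 48 h against 6 h (Nelfa, 10.1%) and over time (Hexim1, 14.9%). At an unadjusted p below 0.05 there were 0, 0, 0 and 1 at 2, 4, 6 and 24 h, and DESeq2 called 0 at each of these. The shares at 48 h, 72 h and over time are near those of all transcripts. The median log2 change of the 10 at 48 h was −0.06, against −0.03 over all transcripts, and with the authors' factors it was 0.17, against 0.20 over all transcripts.

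For Ser5p at TSS edgeR called 0 of 10 at 2 h (0.0305% of all transcripts), 4 h (0.0153%) and 6 h (0.0549%), 1 at 24 h (Nelfa, 6.73%), 1 at 48 h (Hexim1, 12.2%), 1 at 72 h (Hexim1, 8.95%), 0 at 48 h against 6 h (7.02%) and 1 over time (Hexim1, 14.5%). Where it called 0, unadjusted p values below 0.05 numbered 1, 0 and 1 at 2, 4 and 6 h and 2 at 48 h against 6 h, and DESeq2 called 0 in each. The count at 24 h depended on the scaling and the tool. With the authors' factors 5 of 10 were called (Nelfa, Supt5, Hexim1, Aff4 and Ccnt1), against 19.2% of all transcripts. DESeq2 called 4 (16.2% of transcripts with an adjusted p) and a fit of the 2 times alone 3 (10.9%). Below the threshold the direction was shared. At 24 and 48 h all 10 changes were above 0, with medians of 0.50 and 0.39 on the log2 scale, against −0.07 over all transcripts at both times. With the authors' factors the medians were 0.96 and 0.70, against 0.40 and 0.23 over all transcripts. These changes share the same 2 untreated libraries. The libraries also differed in how much Ser5p fell on weak transcripts. Transcripts below the median level held 19.0 and 20.8% of reads at 0 h. At 24 h they held 13.6 and 11.6%, and at 48 h 19.1, 12.5 and 14.7%. The members lay between the 58.4 (Nelfe) and 98.8 percentile (Hexim1) of Ser5p at the TSS. The part of this difference in the shared direction was not tested.

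Over gene bodies edgeR called 0 of 10 for NTD at 2 h (0% of all transcripts), 4 h (0.0188%), 6 h (0.0691%) and 24 h (0.270%), 1 at 48 h (Nelfa, 3.75%), 2 at 72 h (Nelfa and Hexim1, 4.52%), 1 at 48 h against 6 h (Nelfa, 9.76%) and 1 over time (Nelfa, 7.81%). Unadjusted p values below 0.05 numbered 0, 0, 0 and 1 at 2, 4, 6 and 24 h, and DESeq2 called 0 at each. All 10 genes were above 0 at 24 h, with a median log2 change of 0.27, against 0.00 over all transcripts.

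For Ser2p over gene bodies edgeR called 0 of 10 at 2 h (0% of all transcripts), 4 h (0%) and 6 h (0%), 3 at 24 h (Nelfa, Supt5 and Aff4, 13.0%), 1 at 48 h (Nelfa, 1.76%), 1 at 72 h (Nelfa, 1.62%), 1 at 48 h against 6 h (Nelfa, 5.43%) and 2 over time (Nelfa and Hexim1, 7.53%). At each of 2, 4 and 6 h, 1 gene had an unadjusted p below 0.05 and DESeq2 called 0. The 3 of 10 at 24 h stand beside a time at which 13.0% of transcripts were called in this table alone, and the member median was 0.35, against −0.02 over all transcripts. The Ser2p-to-NTD ratio over gene bodies, tested with limma, was called for 0 of 10 over time (0.208% of all transcripts), with 2 (Nelfa and Nelfe) at an unadjusted p below 0.05, and DESeq2 was not run on ratios. For Nelfa that ratio changed by 0.03 ± 0.10 at 48 h (adjusted p = 0.906).

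Another 66 genes of the same machinery, from 8 lists, were examined beside the members. Over time edgeR called 13 of 66 for NTD and 15 for Ser5p near the TSS, and 2 for NTD and 4 for Ser2p along gene bodies, and none at 6 h in any table. At 48 h 4 rose and 3 fell for NTD at TSS, 14 rose and 2 fell for Ser5p, 1 rose and 1 fell for NTD over bodies, and 1 rose for Ser2p. At 72 h the numbers were 6 and 1, 9 and 1, 2 and 1, and none for Ser2p. Of all transcripts 9.58, 12.2, 3.75 and 1.76% were called at 48 h in these 4 tables, and 9.13, 8.95, 4.52 and 1.62% at 72 h. The counts over time stand beside the 14.9, 14.5, 7.81 and 7.53% of all transcripts called over time. By list, calls over time for NTD at TSS were 1 of 3 for partners of NELF, DSIF and SPT6, 1 of 5 for regulators of P-TEFb, 3 of 10 for the super elongation complex, 3 of 6 for the PAF1 complex, 3 of 10 for elongation factors and chaperones, 0 of 6 for other kinases and cyclins of the C-terminal repeat, 0 of 14 for Integrator and 2 of 12 for Pol II subunits.

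Ctr9, a core subunit of the PAF1 complex that travels with elongating Pol II, rose at its start, and along its body by calls that several alternatives ended. Its over-time NTD call along the body was lost in 13 of 22 alternatives, and its 72 h NTD call at the TSS in 5 of 10. NTD at its TSS was 60.2 to 79.0 CPM at 48 h and 50.8 to 58.7 CPM at 72 h, against 30.5 to 33.9 CPM at 0 h (1.03 ± 0.20 at 48 h, log2, edgeR, adjusted p = 0.000370), and this call was kept in all alternatives. NTD over the Ctr9 body was 32.3 to 45.0 CPM at 48 h, against 21.9 to 25.6 CPM at 0 h (0.63 ± 0.14, adjusted p = 0.0185), a call lost without 0 h replicate 1 (adjusted p = 0.0615), 0 h replicate 4 (adjusted p = 0.311, and 0.183 with 72 h replicate 3 also left out) and in a fit of the 2 times alone (adjusted p = 0.12). Paf1 of the same complex rose at its TSS at 72 h, to 104.7 and 106.6 CPM of NTD, against 53.3 and 66.6 CPM at 0 h (0.83 ± 0.20, adjusted p = 0.00388), a call that ended without 0 h replicate 1 (0.66, adjusted p = 0.143), without 72 h replicate 3 (0.73, adjusted p = 0.0647), without that and 0 h replicate 4 (0.96, adjusted p = 0.0522), with the authors' factors (1.01, adjusted p = 0.116) and in a fit of the 2 times alone (0.80, adjusted p = 0.0805). The PAF1 list had a median NTD change at the TSS of 0.29 at 48 h and 0.49 at 72 h, against −0.03 and −0.04 over all transcripts.

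Setd2, the enzyme that trimethylates histone H3 lysine 36 and binds the phosphorylated repeat, rose at its TSS. NTD there was 59.9 to 68.9 CPM at 48 h and 56.7 to 60.2 CPM at 72 h, against 21.8 to 27.0 CPM at 0 h (1.31 ± 0.22 and 1.27 ± 0.23, log2, edgeR, adjusted p = 2.22e-05 and 0.000112), and both calls were kept in all alternatives. Over the Setd2 body NTD changed by 0.06 ± 0.11 at 48 h (adjusted p = 0.908). Tcea3, a tissue-restricted form of the elongation factor TFIIS that restarts backtracked Pol II and that is known from embryonic stem cells, fell. NTD over its body was 16.0 to 16.5 CPM at 48 h and 14.7 to 17.3 CPM at 72 h, against 28.9 to 30.3 CPM at 0 h (−0.87 ± 0.11 and −0.85 ± 0.12, adjusted p = 0.000523 and 0.00164), and in a fit of the 2 times alone the 72 h call for Tcea3 ended (−0.86, adjusted p = 0.312). At the Tcea3 TSS NTD was 13.8 to 21.5 CPM at 48 h, against 34.8 to 67.8 CPM at 0 h (−1.55 ± 0.28, adjusted p = 7.37e-05), a call lost without 0 h replicate 4 (−0.86, adjusted p = 0.155, and 0.0658 with 72 h replicate 3 also left out).

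Some calls rested on 1 library. Supt4a, whose product is the small partner of SPT5 in DSIF, had NTD at its TSS of 36.8 to 44.9 CPM at 48 h, against 40.3 and 130.5 CPM at 0 h (−1.17 ± 0.30, log2, edgeR, adjusted p = 0.00748). Without the higher 0 h library, replicate 4, the Supt4a change was 0.06 (adjusted p = 0.964), and DESeq2 (−1.15, adjusted p = 0.189) and the authors' factors (−0.94, adjusted p = 0.0843) did not call it. Its Ser5p changed the other way, by 0.70 ± 0.23 (adjusted p = 0.0332), a call that ended without any one of 4 libraries (0.64 to 0.72, adjusted p = 0.101 to 0.174). For Polr2e, a Pol II subunit, the NTD change at the TSS at 48 h depended on the same library (−1.62 ± 0.31, edgeR, adjusted p = 0.000203, and −0.28 without it). Over time, however, Polr2e was called for NTD at the TSS in 21 of 22 alternatives. Its over-time calls for Ser5p at the TSS and Ser2p over the body were each kept in 23 of 23. Aff1, a scaffold like Aff4 and named here after its values were seen, rose at its TSS by 0.92 ± 0.20 at 48 h (adjusted p = 0.00109) and 1.59 ± 0.21 at 72 h (adjusted p = 3.29e-07), and the 72 h call was kept in all alternatives, while that at 48 h ended without 0 h replicate 1 (0.82, adjusted p = 0.0553). Hexim2, the paralog of Hexim1, had 69.1 to 80.5 CPM of Ser5p at its TSS at 48 h, against 41.8 to 52.2 CPM at 0 h (0.81 ± 0.23, adjusted p = 0.0158), a call lost without 0 h replicate 1 (0.67, adjusted p = 0.194) or 4 (0.97, adjusted p = 0.0704) and without 48 h replicate 2 (0.74, adjusted p = 0.0607) or 3 (0.76, adjusted p = 0.0603).

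Likeness to the members was measured as Pearson's r of log2 CPM over the 17 NTD libraries, as a description. Among 28022 transcripts, the genes most like Hexim1 at the TSS included Ddx5 (0.961) and Jpt1 (0.947). Among 24912 transcripts, those most like Nelfa over the body were Cwc22 (0.986), Btbd1 (0.981) and Osbpl11 (0.977). The libraries compared share depth and the spread between replicates, and the genes were picked for their likeness from all transcripts compared.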

How the data were processed

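Chromatin immunoprecipitation sequencing was summarised in 4 deposited tables, NTD and Ser5p within 1 kb of each TSS and NTD and Ser2p along gene bodies, with 1 row per RefSeq transcript (mm10). The authors used Bowtie2, SAMtools, MACS2 and DESeq2 and the builds mm10 and dm6, per the submitters' processing notes. For the counting tool and for tool versions, nothing is given in the sources used here. The deposited raw read counts per transcript, not normalized by the authors, were tested. The authors also deposited a normalized signal, in which each library's counts were multiplied by 1 factor, and these factors were used as an alternative. The authors' deposited FPKM values over gene bodies served for body lengths. That the body window covers the whole transcript was read from those lengths, not stated. The tables hold 14 further columns of values that were not used.

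CPM scales each raw count to the total of the same table, and transcripts without a symbol took 0.0166 to 0.0761% of counts. Tests ran across all transcripts that passed filterByExpr (31868, 32774, 31843 and 32123) in edgeR 4.0.16 (quasi-likelihood, TMM, time as a factor, R 4.3.3), with DESeq2 1.42.0 as an alternative. Log2 ratios of CPM (pseudocount 0.5 CPM) were tested in limma 3.58.1 (30699 for body-to-TSS, 31860 for Ser5p-to-NTD and 31760 for Ser2p-to-NTD). Adjusted p is Benjamini-Hochberg over all transcripts tested, with a threshold of 0.05, and all 10 members passed the filters. Scripts were tested on simulated data.

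The members and lists were chosen with earlier results of these data known. Named are all 10 members, by the 1 transcript with the highest mean NTD count at the TSS, the 2 genes per related list with the smallest over-time p for NTD along bodies, and the 3 genes most like the 2 members with the smallest over-time p (at least 5 CPM, not within 10 kb), of which 1 is not reported here. Nsd2, Mir7024 and Aff1 fall outside this rule and were chosen after their values were seen. Promoter sequences are RefSeq's (GRCm38.p6).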

Additional observations from a re-analysis of the deposited data

Results flagged for a closer look

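The Nelfa ratios were marked because 2 readouts changed differently under the same comparison, by a test of the difference itself (limma on the log2 ratio, Benjamini-Hochberg adjustment). For the NTD body-to-TSS ratio both readouts come from the same libraries. The Ser5p-to-NTD ratio joins separate libraries by time and replicate number. The change of NTD over the Nelfa body exceeded that at its TSS by 1.56 at 48 h and by 1.38 at 72 h on the log2 scale (adjusted p = 0.000918 and 0.0161). The change of Ser5p at the Nelfa TSS exceeded that of NTD there by 0.91 at 48 h and by 0.75 at 72 h (adjusted p = 0.000629 and 0.0165). As an edgeR interaction of antibody and time, with libraries not joined, neither was called (adjusted p = 0.0868 and 0.462). The part of reads from Nsd2 and the Mir7024 window in these ratios was not tested. Groups of 2 or 3 libraries are too small to be tested for a single far sample.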

How the results depend on the processing

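For the members, 28 results were called, and of 379 values under alternatives 283 kept the call, 96 kept the direction without it and 0 reversed. For other named genes the numbers were 1170, 304 and 2 of 1476 values for 100 called results. The 2 reversals were Supt4a NTD at TSS at 48 h, −1.17 with all libraries, −1.76 to 0.06 when 1 library was left out (0.06 without 0 h replicate 4), and 0.0671 when 72 h replicate 3 was left out as well. The alternatives for Nsd2 and Mir7024 were chosen after seeing the data. The alternative of choosing each table's own top transcript changed nothing by construction, since the transcripts of Nelfb and of Nelfe have identical counts.

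Members called changed as follows, and the cause was not tested. NTD at TSS went with the authors' factors to 0 over time, at 48 h, at 72 h and at 48 h against 6 h, in place of 1 each. Fitting only the 2 times compared gave 0 at 72 h for NTD and for Ser5p at TSS (1 each), 0 for NTD bodies at 72 h (2), 0 for Ser2p at 72 h (1), 2 for Ser2p at 48 h against 6 h (1), and at 24 h 3 for Ser5p (1), 2 for NTD bodies (0) and 5 for Ser2p (3). DESeq2 gave 4 for Ser5p at 24 h (1), 2 for Ser5p over time and at 48 h (1 each), 2 for NTD bodies over time (1), and for Ser2p 4 over time (2), 3 at 72 h (1) and 2 at 48 h against 6 h (1). The authors' factors gave 5 for Ser5p at 24 h (1) and 1 for Ser2p over time (2). The Ser5p-to-NTD ratio gave 0 as an edgeR interaction over time, at 48 and at 72 h (1 each). In a further alternative 0 h replicate 4 and 72 h replicate 3 of each antibody were left out, of which only the NTD libraries stood apart. Without them the member calls ended for NTD at TSS and NTD bodies at 72 h. They also ended for Ser5p over time, at 24, 48 and 72 h and for Ser2p at 24 and 72 h. The body-to-TSS ratio at 72 h and the Ser5p-to-NTD ratio at 48 and 72 h lost theirs too. Hexim1 was called in addition for Ser2p at 48 h against 6 h.

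Leaving out 1 library at a time gave 0 to 2 for NTD at TSS over time, 0 to 1 at 48 h, at 72 h and at 48 h against 6 h. It gave 1 to 2 for Ser5p over time (0 without both) and 0 to 2 at 24, 48 and 72 h. It gave 1 to 3 for NTD bodies over time, 0 to 1 at 48 h and 0 to 4 at 72 h, and for Ser2p 1 to 2 over time and at 48 h, 0 to 1 at 24 h (3 with all libraries) and 0 to 3 at 72 h. Ratio calls at 72 h, and the Ser5p-to-NTD call at 48 h, became 0 to 1. In all, 28 member results not called here were called under at least 1 alternative, in 6 genes, and no count for the 4 tables at 2, 4 or 6 h left 0 under any.

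Same-numbered libraries did not always deviate together, with pair correlations of −0.153 to 0.297 (NTD at TSS), −0.251 to 0.419 (Ser5p), −0.599 to 0.770 (NTD bodies) and −0.689 to 0.793 (Ser2p). Above 0.1 were 18 of 32, 18 of 37, 27 of 32 and 20 of 37 pairs, with medians of 0.102, 0.0948, 0.361 and 0.154, against −0.0539, −0.0336, −0.175 and −0.0237 for other pairs, so that not every pair passed and the numbers were not taken as pairs. The replicate block gave 2 called for NTD at TSS over time, at 48 h, at 72 h and at 48 h against 6 h (1 each), 2 for NTD bodies over time (1), 1 for Ser2p over time (2) and 0 for Ser5p at 24 and 48 h (1 each), Ser2p at 24 h (3) and the Ser5p-to-NTD ratio at 72 h (1). With it the calls of Hexim1 (Ser5p at 48 h, adjusted p = 0.108) and Ctr9 (NTD body at 48 h, adjusted p = 0.0715) ended, and Larp7 NTD at TSS was called at 48 h against 6 h (−0.53, adjusted p = 0.0328). With 2 libraries at 0, 24 and 72 h, and 21 to 62 NTD reads at the Nelfe TSS, small changes were not detectable.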
